A study of Mus musculus with 18 samples.

Results

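The 44 genes described here are interferon-stimulated effector genes, the genes whose products carry out the antiviral programme of a cell that has sensed interferon. They were chosen by name and not by a threshold on measured values, but with earlier results of these data known, and all 44 symbols were present among the 32941 genes of each of the 4 deposited expression tables. In textbook outline, type I interferon binds a receptor at the cell surface, Janus kinases phosphorylate STAT proteins, among them STAT2, and these join IRF9 to form the complex ISGF3. ISGF3 binds the interferon-stimulated response element (ISRE) in the promoters of its targets, whereas the gamma-activated site (GAS) is the element bound after interferon gamma. The products then bind or degrade viral RNA, block budding, modify proteins or damp the signal, and in brain they are known from microglia, astrocytes and neurons alike.

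The study measured RNA from mouse tissue and cells by sequencing and concerns peroxisomes and ether lipids in cortical neurogenesis. Of its 18 libraries, 6 came from embryonic brain without a genetic change (WT), taken once each on days 11, 12, 13, 14, 16 and 18, and 4 were primary neural stem cells, 2 wild-type with a scrambled hairpin (Scramble) and 2 labelled PEX7-knockdown (Pex7sh). Another 8 were labelled brain, wild type or PLAAT3-PEX11 overexpression. Ctrl1 and PLA1, with 2 libraries each, are called the first set here, and Neuron-ctrl and Neuron-PLA, also with 2 each, the neuron set. The series' design text names cortex and triplicate profiles, whereas the stages analysed here are labelled brain and have 1 library each. The age of the tissue in these sets, the promoter and vector of the overexpression, and whether replicates came from separate animals or cultures were not given in the sources used here. The spread behind the p-values is thus that of the sequenced libraries alone and could be technical.

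The values were RPKM, read numbers scaled by exon length and by the library's read total, so levels can be compared between genes. The stages were sequenced more deeply (41501882 to 54373316 reads, recovered from the values) than the 12 other libraries (16147909 to 28104925). Plaat3 was 0.413 and 0.431 RPKM in Ctrl1 against 31.4 and 29.1 in PLA1, and 0.0699 and 0.230 in Neuron-ctrl against 19.0 and 20.8 in Neuron-PLA. Pex7 was 1.19 and 1.22 in Scramble against 0.50 and 0.669 in Pex7sh. Plaat3 and Pex7 therefore followed the labels, with no overlap between groups. In all 6 replicated groups, the replicate libraries differed by more than counting noise.

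Promoters were matched in RefSeq (GRCm38.p6) for 34 of the 44 genes, as windows from 250 bases before to 50 after the gene's start. The letters GAAANNGAAA, the core of the ISRE, were searched on both strands and found in 18 of the 34 (52.9%), against 3.99% of 27025 genes. The shorter GAS core, TTCNNNGAA, reads the same pattern on both strands and was found in 7 of 34 (20.6%), against 9.55% of genes. A match is a string of letters and not a measured binding site, and its absence says only that these letters are not in the window. The 6 stretches of 120 bases that end at the start of the gene are shown because they span the pattern from several matches to 1 match, and because Oas3 moved against the other genes. They are chr4:156200819-156200938 on the minus strand for Isg15, chr19:34640769-34640888 on the plus strand for Ifit1, chr8:61927967-61928086 on the plus strand for Ddx60, chr11:58199436-58199555 on the plus strand for Igtp, chr11:58214857-58214976 on the plus strand for Irgm2 and chr5:120777660-120777779 on the minus strand for Oas3. Each is written 5′ to 3′ on the gene's strand, and capitals mark letters of an ISRE core match, which for Ifit1 lie on the other strand and so appear as the reverse complement.
Isg15: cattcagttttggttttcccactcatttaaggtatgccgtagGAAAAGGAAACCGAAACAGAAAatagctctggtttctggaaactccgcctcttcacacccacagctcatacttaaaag
Ifit1: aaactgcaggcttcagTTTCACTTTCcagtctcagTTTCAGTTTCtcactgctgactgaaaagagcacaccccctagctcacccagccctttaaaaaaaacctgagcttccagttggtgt
Ddx60: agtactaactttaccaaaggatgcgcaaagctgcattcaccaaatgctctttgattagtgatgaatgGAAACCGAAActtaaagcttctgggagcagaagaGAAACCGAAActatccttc
Igtp: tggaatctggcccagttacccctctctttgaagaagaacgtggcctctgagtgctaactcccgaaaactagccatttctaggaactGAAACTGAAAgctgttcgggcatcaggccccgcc
Irgm2: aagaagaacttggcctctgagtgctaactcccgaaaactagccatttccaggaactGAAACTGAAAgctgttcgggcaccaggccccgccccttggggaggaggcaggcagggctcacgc
Oas3: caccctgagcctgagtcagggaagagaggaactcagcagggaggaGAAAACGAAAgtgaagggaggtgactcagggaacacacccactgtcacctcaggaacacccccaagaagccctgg

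In Isg15, 3 matches overlapped in a run that ended 56 bases before the start. Ifit1 held 2 matches, 94 and 75 bases before the start, and Ddx60 held the same 10 letters at 43 and 9 bases before it. Igtp and Irgm2, which encode related immunity GTPases, held the same match 24 and 54 bases before their starts, each with a GAS core match next to it. Oas3 held 1 match, 65 bases before its start. These positions are those of RefSeq.

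Several of the genes are neighbours. By the GENCODE M21 annotation of GRCm38 (mm10), Ifit2, Ifit3, Ifit3b and Ifit1 lie in that order on the plus strand of chromosome 19 between 34550694 and 34650009. Gbp7, Gbp3 and Gbp2 lie together on chromosome 3 between 142530342 and 142638008, and Oas2, Oas3 and Oas1a on the minus strand of chromosome 5 between 120730333 and 120907521. Rsad2 (chromosome 12, 26442746 to 26456452, minus strand) and Cmpk2 (26469204 to 26479837, plus strand) point away from each other with starts 12752 bases apart. Dtx3l and Parp9 on chromosome 16 overlap head to head, with starts 681 bases apart, and the annotated Irgm2 overlaps Igtp on chromosome 11. The annotated Irf9, Rtp4, Uba7 and Gbp6 also overlap other protein-coding genes, Rnf31, Masp1, Gm20661 and Gm43302 in that order. Whether exons are shared in any of these overlaps was not examined. Whether the counting used strand was not given in the sources used here, so reads from the overlap of Dtx3l and Parp9 may not be told apart. Igtp and Irgm2 overlap on the same strand, where counting by strand would not separate their reads. Counts of near-identical copies, such as Ifit3 and Ifit3b, the Gbp and Oas1 genes or Trim30a, are also uncertain.

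The level of the genes differed widely between the tables. In the first set 43 of 44 had a mean of at least 1 RPKM over the 4 libraries, Helz2 lay between 0.3 and 1, and none was below 0.3. In the neuron set 7 had a mean of at least 1 (Irf9, Stat2, Ifit2, Cmpk2, Bst2, Rtp4 and Ifi27), 8 lay between 0.3 and 1 (Usp18, Gbp3, Gbp7, Parp9, Parp12, Dtx3l, Trim30a and Ifi35), and the other 29 were too low to judge, under 0.3 RPKM. The neural stem cells had 15, 14 and 15 genes in these classes and the stages 7, 7 and 30. Summed over the 44 genes, the level was 690 and 651 RPKM in Ctrl1, 2007 and 1969 in PLA1, 38.6 and 40.5 in Neuron-ctrl, 42.0 and 39.8 in Neuron-PLA, 55.6 to 63.8 in the stem cells and 18.5 to 29.3 in the stages. The controls of the first set thus already stood above every library of the other tables. The tables were normalised separately and some genes differ between them from a level to none: Trex1, a nuclease of cytosolic DNA, was at 0 in the 12 other libraries and at 18.8 to 27.1 RPKM in the stages. The sums set side by side across tables are a description without a test.

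**Figure D1:**
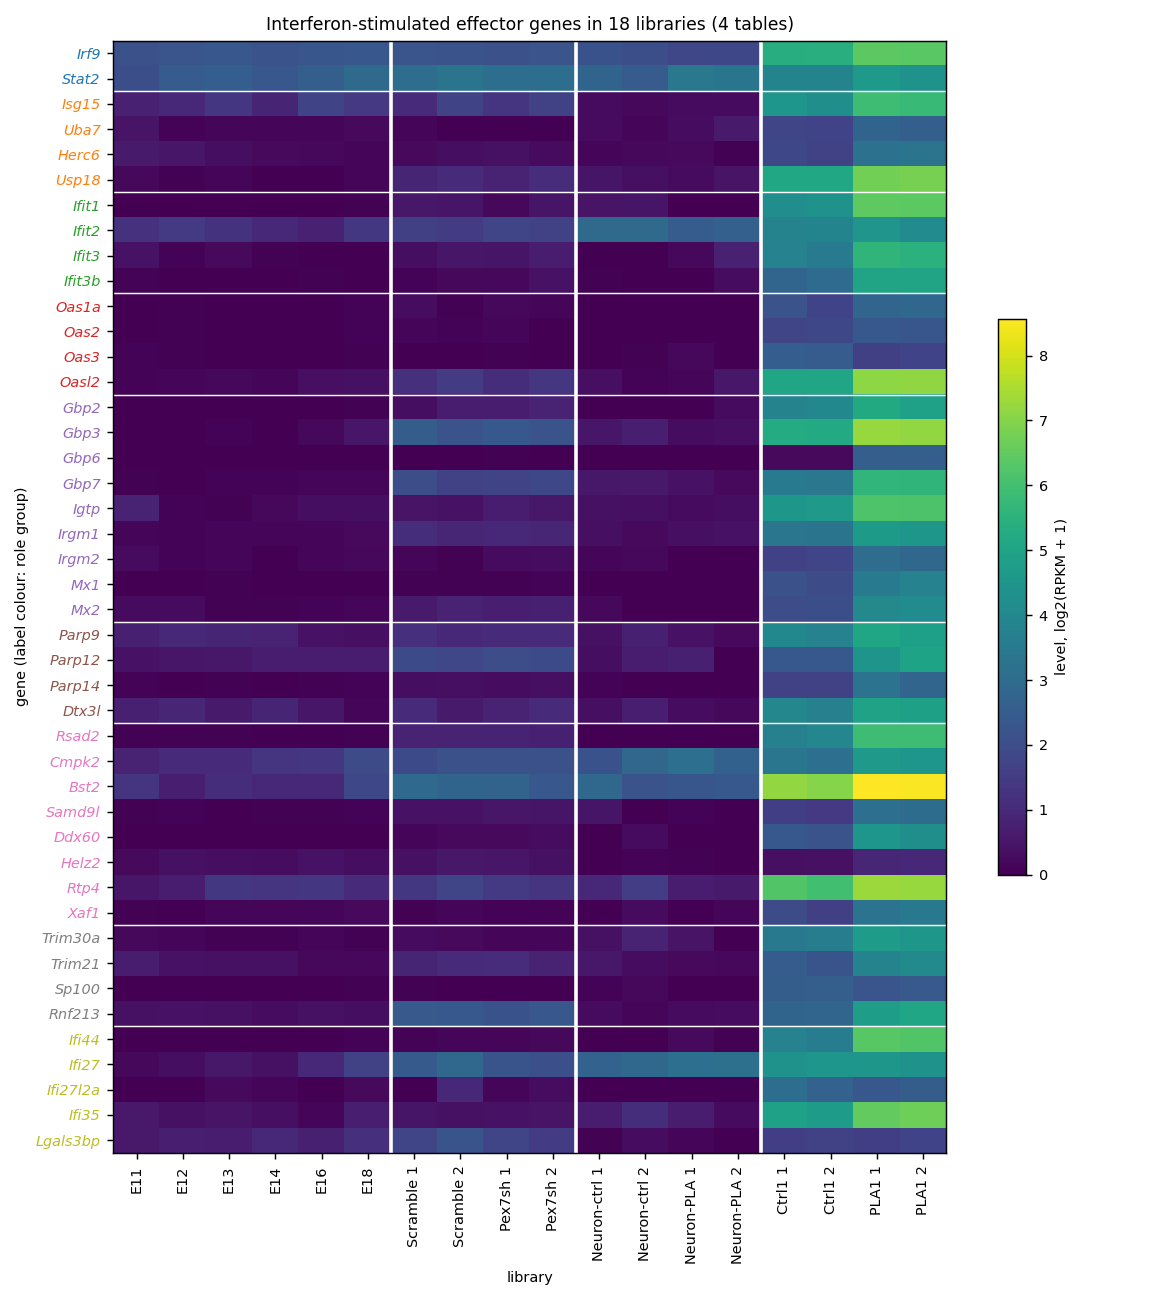
Level of each gene as log2(RPKM + 1) in the 18 libraries, with genes in rows, coloured by role group, and libraries in columns; white vertical lines separate the 4 tables. The 4 libraries of the first set are bright in nearly every row, with a sum of 651 RPKM or more, while Irf9, Stat2, Ifit2, Cmpk2, Bst2 and Rtp4 have a mean of at least 1 RPKM in all 4 tables.

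Markers of microglia, the macrophages of the brain which are known to express many such genes, moved in other ways. The summed level of 14 microglia and macrophage markers was 443 to 478 RPKM in Ctrl1, 196 to 213 in PLA1, 133 to 137 in Neuron-ctrl, 76.3 to 84.4 in Neuron-PLA, 19.7 to 48.3 in the stages and 3.14 to 7.76 in the stem cells. No microglial marker was at 0 in every library of a group. Of 12 such markers tested in PLA1 against Ctrl1, 8 fell and 0 rose, with a median change of -0.99 in log2(RPKM + 1). Csf1r, the receptor for macrophage growth factor, fell by 1.52 and C1qb, a complement chain, by 1.26. Summed lymphocyte markers did not exceed 0.923 RPKM in any library, with 4 to 10 of 10 markers at 0 in each group. In the same comparison 7 of 10 neuronal markers fell and 0 rose (sums 1965 to 2005 RPKM in Ctrl1 and 1071 to 1159 in PLA1), and 5 of 9 radial glia markers rose and 1 fell. Astrocyte markers summed to 249 to 254 RPKM in Ctrl1 and 115 to 122 in PLA1, with 1 of 4 tested rising and 1 falling. Pericyte and meninges markers summed to 3.21 to 3.58 against 1.13 to 1.64, and the 1 tested fell. Endothelium markers summed to 1.71 to 1.93 RPKM in Ctrl1 and 1.67 to 2.09 in PLA1, against 32.0 at day 12 and 57.4 at day 18 of the stages. Erythroid markers summed to 7.44 to 9.81 in Ctrl1 and 4.74 to 5.16 in PLA1, and choroid plexus markers to 0.106 to 0.551 and 0.362 to 1.40. The part of cell composition in the results on the 44 genes was not tested. In bulk RNA, fewer cells of a type and less RNA per cell cannot be told apart.

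Overexpression in the first set was compared on the scale log2(RPKM + 1) by limma, over the 11623 genes that averaged 1 RPKM or more, at an adjusted p under 0.05. Of the 43 genes tested, 38 rose and 1 fell in PLA1 against Ctrl1. Over all genes tested in this comparison, 16.3% rose and 13.2% fell (1900 and 1538 genes, or 1326 and 1972 under upper-quartile scaling, with 36 of the 43 rising). The median change of the 43 was 1.46, against 0.06 for all genes tested. On the RPKM scale itself, the ratio of the group means was 31.2 for Gbp6, from a level near 0, and 6.39 for Ifi44, and the 2 most abundant genes, Bst2 and Rtp4, stayed so in both groups.

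Irf9 and Stat2 encode the main DNA-binding and the transactivating subunit of ISGF3. Irf9 was 39.1 and 41.6 RPKM in Ctrl1 and 84.2 and 81.9 in PLA1, a rise of 1.02 ± 0.08 (SE, adjusted p = 0.000302). Stat2 was 13.7 and 13.5 against 23.8 and 19.9, a rise of 0.64 ± 0.11 (adjusted p = 0.0067). By limma without a filter on low values, the rise of Stat2 did not pass (adjusted p = 0.0525). In neither gene did the groups overlap. How many of all genes were without overlap was not counted, for these or for the genes below.

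All 4 genes of the ISG15 system rose, with a median of 1.49. Isg15 encodes the ubiquitin-like modifier itself, and was 21.7 and 18.1 RPKM in Ctrl1 and 58.8 and 53.9 in PLA1 (1.46 ± 0.11, adjusted p = 0.000282). Uba7 encodes its activating enzyme and rose by 0.93. Herc6, the ligase that attaches ISG15 in mouse, was 2.62 and 2.12 against 8.48 and 8.80. Usp18 removes ISG15 and also damps signalling at the interferon receptor. It was 33.3 and 33.1 RPKM in Ctrl1 against 106 and 112 in PLA1 (1.68 ± 0.07, adjusted p = 5.43e-05). In each of these genes both PLA1 libraries lay above both controls, so the modifier and the enzymes that add and remove it were higher together.

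The IFIT proteins bind viral RNA and block its translation. All 4 genes rose, but by unequal amounts, and the call of Ifit2 depended on the settings. By limma it was lost under median-ratio scaling (adjusted p = 0.0724), upper-quartile scaling (0.111), without a trend (0.0791) and without a filter (0.144). Ifit1 was 17.4 and 19.9 RPKM in Ctrl1 and 86.7 and 84.3 in PLA1 (2.14 ± 0.09, adjusted p = 4.55e-05). Ifit3 was 12.8 and 10.4 against 47.3 and 43.1, and Ifit3b 5.89 and 6.92 against 31.4 and 31.3. Ifit2, at the end of the cluster, was 13.3 and 13.6 against 21 and 16.5, a rise of 0.44 ± 0.13 (adjusted p = 0.0406). The groups did not overlap for any of the 4, and the call of Ifit2 was lost with the filter at 0.3 RPKM (adjusted p = 0.0587) and without the first or the second Ctrl1 library or the first PLA1 library (0.0882 to 0.138).

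The OAS family was the only role group with calls in both directions. The family is named for the making of 2′-5′-oligoadenylate, a signal molecule of the antiviral response, and Oasl2 is named among its OAS-like members. Oasl2 was 31.9 and 32.7 RPKM in Ctrl1 and 137 and 140 in PLA1 (2.07 ± 0.07, adjusted p = 2.47e-05). Oas1a was 3.61 and 2.27 against 5.98 and 6.24 (0.87 ± 0.19, adjusted p = 0.0137), with the call lost without the second Ctrl1 library (0.0521) or the second PLA1 library (0.0707). Its call rested on single libraries: without the second Ctrl1 library the adjusted p was 0.0521, and without the second PLA1 library 0.0707. Oas2 rose by 0.49 (adjusted p = 0.0408), a call that was lost when any 1 of the 4 libraries was left out (0.0785 to 0.222). Oas3 fell, from 4.96 and 4.66 RPKM to 2.10 and 2.31 (-0.86 ± 0.15, adjusted p = 0.00589), although Oas2 lies 3245 bases from it on the same strand and its promoter window holds the ISRE core printed above.

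All 9 interferon-induced GTPases rose, with a median of 1.64 and a range from 1.14 to 2.38. They comprise guanylate-binding proteins and immunity-related GTPases, which act on the vacuoles of intracellular pathogens, and the Mx proteins, which trap viral nucleocapsids. Gbp6 was 0.172 and 0.152 RPKM in Ctrl1 and 5.11 and 5.0 in PLA1 (2.38 ± 0.17, adjusted p = 0.000227). It passed the filter on low values only through the PLA1 libraries, so it could only have been tested as a gene that was high there. Gbp7 was 10.6 and 9.47 against 48.5 and 48.2, and Mx2 3.08 and 3.21 against 15.4 and 16.5. The most abundant GTPase was Gbp3, at 37.4 and 36.7 RPKM in Ctrl1 and 150 and 143 in PLA1. Igtp and Irgm2, with the related promoters printed above, rose by 1.62 and 1.25, though the counts may not separate these 2 overlapping genes. The printed Irgm2 stretch, from 58214857, lies inside the annotated gene used for exon length, which runs from 58199618 to 58222782.

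The PARP genes encode enzymes or relatives of enzymes that attach ADP-ribose, and Dtx3l encodes the ubiquitin ligase that pairs with PARP9. All 4 rose. Parp12 was 4.11 and 4.14 RPKM in Ctrl1 and 20.6 and 30.0 in PLA1 (2.34 ± 0.17, adjusted p = 0.000278). Parp14 was 2.18 in each control against 8.55 and 5.99. Parp9 was 14.9 and 13.0 against 32.8 and 27.8, and its head-to-head neighbour Dtx3l 14.7 and 12.2 against 29.5 and 27.9. The 2 neighbours rose by nearly the same amount, 1.06 and 1.04, while their annotated genes overlap in a stretch that the counts may not separate.

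Of 8 other antiviral effectors, 7 were tested and all 7 rose. Ddx60, a helicase linked to RNA sensing, was 4.10 and 3.61 RPKM in Ctrl1 and 21.9 and 18.3 in PLA1 (2.12 ± 0.13, adjusted p = 0.000151). Rsad2 encodes viperin, which makes a chain-terminating nucleotide from the CTP supplied with the help of its neighbour's product, the kinase CMPK2. Rsad2 was 12.4 and 14.5 against 58.9 and 59.2, a rise of 2.06, and Cmpk2 was 9.40 and 7.73 against 23.7 and 21.9, a rise of 1.32. Samd9l, a restriction factor, was 2.01 and 1.69 against 7.70 and 7.12. Bst2, or tetherin, holds budding virus at the cell surface and was the most abundant of all 44 genes, at 144 and 128 RPKM in Ctrl1 and 378 and 368 in PLA1. Rtp4, second in level, rose by 1.15, and Xaf1, a proapoptotic protein, by 1.55. The eighth, Helz2, was 0.271 and 0.301 against 0.876 and 0.938. It was tested only with the filter lowered to 0.3 RPKM, where its change was 0.57 ± 0.17 and its adjusted p was 0.0606.

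Of the TRIM, nuclear body and RING group, 3 of 4 rose. Rnf213, a very large RING ligase, was 5.79 and 5.97 RPKM in Ctrl1 and 26.3 and 31.8 in PLA1 (2.12 ± 0.12, adjusted p = 0.000114). Trim21, an antibody receptor of the cytosol, was 4.63 and 3.69 against 13.2 and 16.0, and Trim30a was 9.98 and 11.3 against 25.8 and 22.4. Sp100, a nuclear body protein, was 4.76 and 5.01 against 3.78 and 4.21, a change of -0.24 ± 0.14 (adjusted p = 0.225) that did not pass.

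The last group, of 5 interferon-induced proteins, was split. Ifi44 had the largest change of the 43 genes tested, from 13.0 and 11.5 RPKM to 81.0 and 75.3 (2.58 ± 0.10, adjusted p = 2.64e-05). Ifi35 was 29.0 and 26.0 against 89.9 and 101. The other 3 were not called. Ifi27 was 20.1 and 21.6 RPKM in Ctrl1 and 22.3 and 20.1 in PLA1, and Lgals3bp was 1.99 and 2.17 against 1.98 and 2.27, so the groups overlapped in both. The 95% intervals of these changes ran from -0.21 to 0.25 for Ifi27 and from -0.37 to 0.40 for Lgals3bp. Ifi27l2a, the neighbour of Ifi27, was 7.50 and 5.54 against 4.01 and 4.82, a change of -0.47 ± 0.17 with an adjusted p of 0.0761. Its adjusted p passed the threshold under upper-quartile scaling (0.0412) and without the second Ctrl1 library (0.0475).

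**Figure D2:**
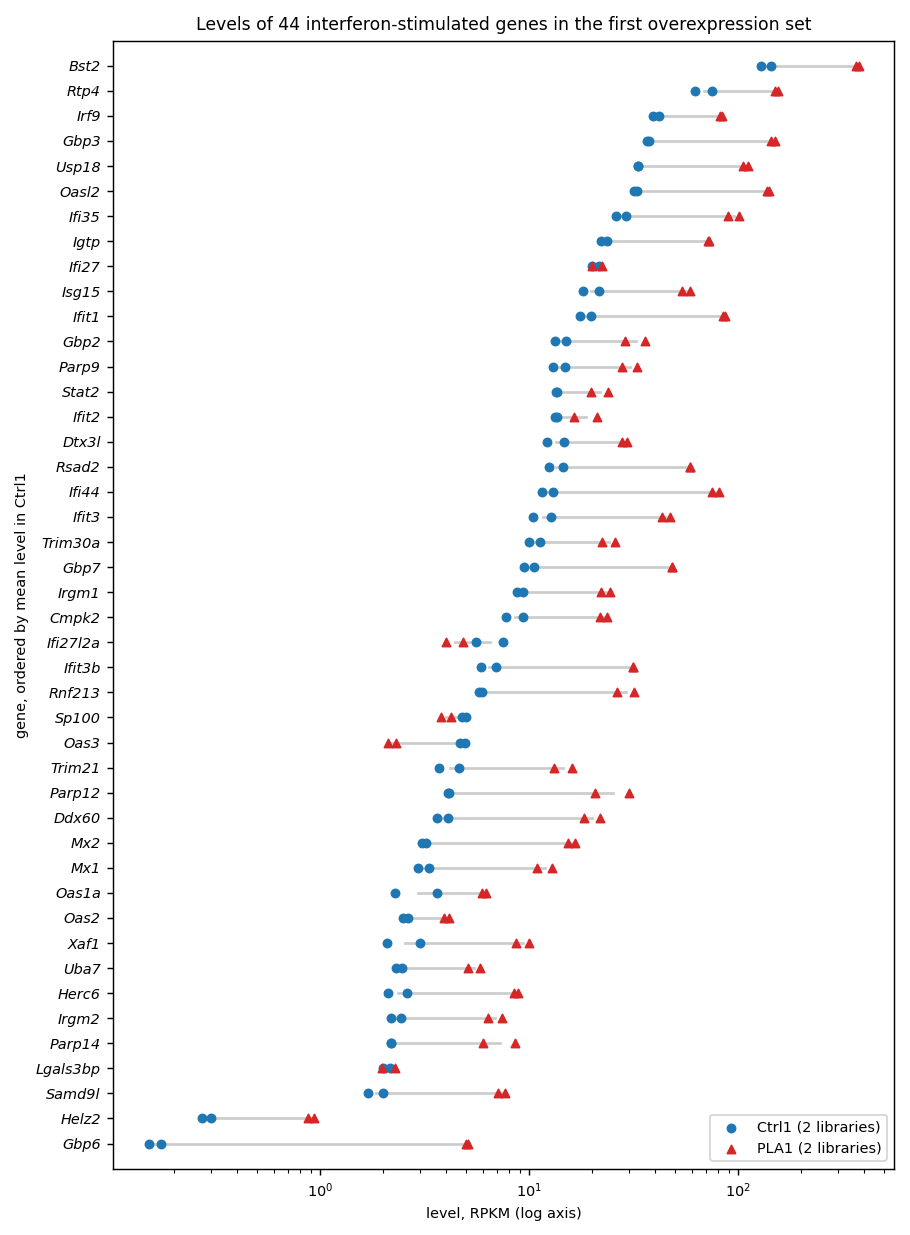
Level of each of the 44 genes in RPKM, on a log axis, in the 2 Ctrl1 libraries (blue circles) and the 2 PLA1 libraries (red triangles), ordered by mean level in Ctrl1; grey lines join the group means. Red lies to the right of blue for all but 5 genes, Oas3, Sp100 and Ifi27l2a with red on the left and Ifi27 and Lgals3bp with overlapping points. The share of all genes that separate in this way was not counted.

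Changes were then set beside the promoter letters. Of the 18 tested genes with an ISRE core in the RefSeq window, 17 rose and 1 fell, with a median change of 1.53. Of the 15 tested genes matched but without it, 13 rose, with a median of 1.52. The 7 genes with a GAS core all rose, with a median of 1.45, against 1.54 for the 26 matched genes without one. These medians are a description without a test.

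Other genes of the pathway were read from lists kept apart from the 44. The interferon genes themselves were at or near 0: of 21 ligands, 15 had no read in any of the 18 libraries and 0 reached the filter in the first set. The highest was Ifnk, a type I interferon, at 0.243 and 0 RPKM in Ctrl1 and 0.462 and 1.11 in PLA1. Of 8 receptor chains and Janus kinases tested, 0 rose and 1 fell, Ifngr2, a chain of the interferon gamma receptor, from 53.8 and 58.9 to 30.9 and 29.2 RPKM. Of 8 STAT and IRF factors, 3 rose and 1 fell. Among these were Irf7, the amplifier of interferon transcription (8.61 and 8.07 against 18.9 and 19.4), Irf1 (5.61 and 6.54 against 10.1 and 8.78) and, falling, Irf8, a factor of the macrophage lineage (5.08 and 5.30 against 2.47 and 2.22).

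Of 14 nucleic acid sensors and adaptors tested, 7 rose and 1 fell. The sensors of double-stranded RNA Ifih1 (8.04 and 7.81 against 25.4 and 27.4 RPKM), Ddx58 (12.6 and 11.7 against 36.1 and 33.9), Eif2ak2 and Tlr3 had the smallest adjusted p. Of 7 negative regulators, Socs1 (2.12 and 2.88 against 7.50 and 9.70), Adar and Socs3 rose and 0 fell. Of 10 genes of MHC class I presentation, 9 rose and 0 fell, with a median of 0.84; Tapbp went from 37.9 and 40.6 to 108 and 121 RPKM and Nlrc5, the transactivator of the class I genes, from 1.89 and 2.26 to 7.96 and 9.39. Of 7 chemokines and NF-kappaB targets, Cxcl10 and Ccl2 rose, by 1.48 and 1.45, and Ccl5 fell by 0.59. Of 32 further interferon-induced genes, 22 rose and 3 fell, among them Ifitm2 and Ifi203, with a median of 1.04; Ifitm3 was 171 and 157 against 421 and 441 RPKM.

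**Figure D3:**
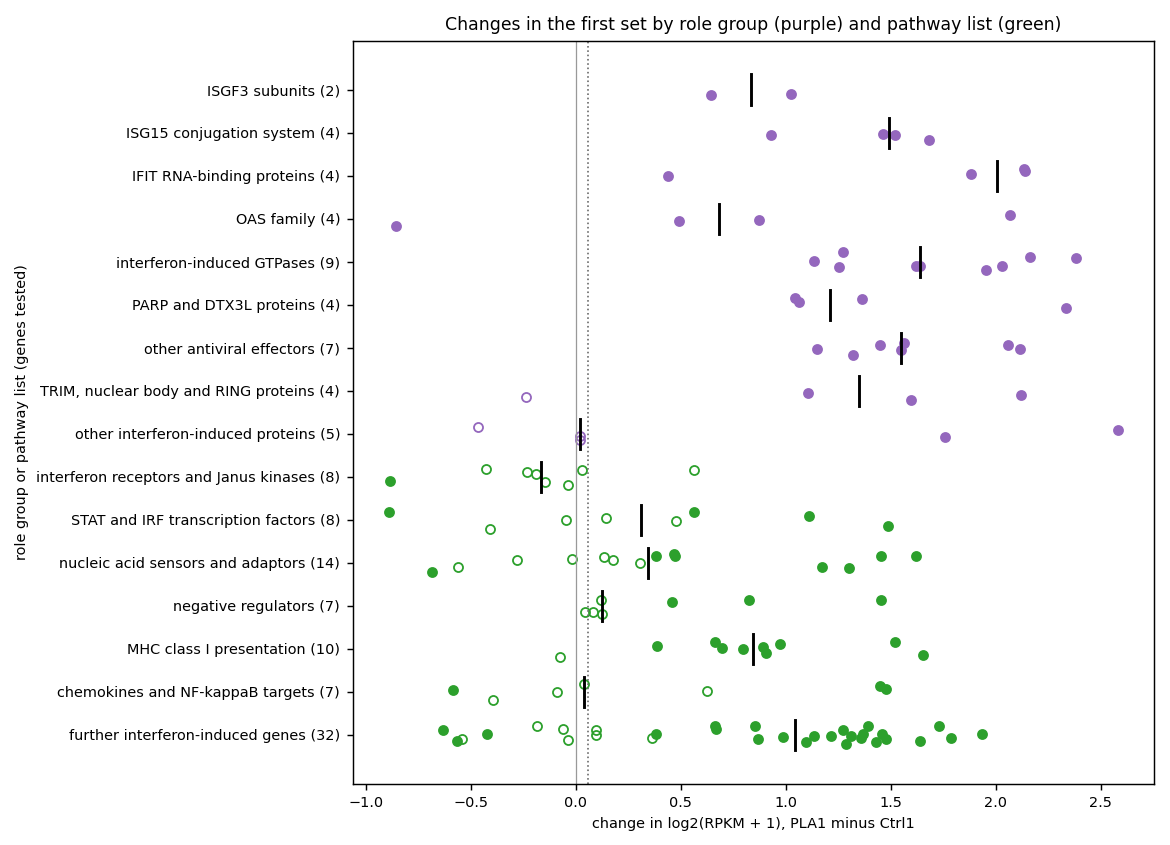
Change in log2(RPKM + 1) between PLA1 and Ctrl1 for each gene tested, by role group of the 44 genes (purple) and by pathway list (green); filled points passed the test, open points did not, black bars are medians and the dotted line is the median of all genes tested, 0.06. The IFIT genes have the highest median of the groups, 2.01, and the receptors and Janus kinases the lowest, -0.17.

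The same overexpression in the neuron set gave no call among these genes. By limma, 0 of the 7 genes at 1 RPKM or more passed, with 3 at an unadjusted p under 0.05. Over all 11179 genes tested, 0.376% rose and 0.501% fell, so few genes of any kind were called. By limma-voom on the recovered reads, 1 of the 7 rose, Stat2. Stat2 was 5.86 and 4.49 RPKM in Neuron-ctrl and 9.69 and 9.14 in Neuron-PLA, a change of 0.76 ± 0.16 with an adjusted p of 0.0802 by limma on RPKM and 0.0192 by limma-voom. The Neuron-PLA libraries both lay above the controls, a separation whose share over all genes was not counted.

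Irf9, its partner, was 3.43 and 3.20 RPKM against 2.51 and 2.59, a change of -0.28 with a 95% interval from -0.69 to 0.13. Ifit2 was 6.73 and 6.80 against 4.67 and 5.24, a change of -0.39 with an interval from -0.73 to -0.04 before adjustment. Ifi27 was 5.46 and 6.37 against 7.79 and 8.05 (0.37), and Cmpk2 3.51 and 6.14 against 7.81 and 5.36 (0.40). Bst2 was 6.44 and 3.62 against 3.90 and 4.10, and Rtp4 0.924 and 1.94 against 0.625 and 0.534. For Cmpk2 and Bst2 the groups overlapped. For Irf9, Ifit2, Ifi27 and Rtp4 they did not, but none of these passed the test. How many of all genes separated in this way was not counted.

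With the filter at 0.3 RPKM, 15 of the 44 genes could be judged in the neuron set. None was called, 3 had an unadjusted p under 0.05, 3 changes were above 0 (Stat2, Cmpk2 and Ifi27) and 12 below, with a median of -0.25. Oas1a, Oas2, Gbp6, Mx1, Rsad2 and Ifi27l2a had no read in any of the 4 libraries. For Rsad2 a count of 0 allows up to 0.0246 to 0.0329 RPKM, taking 3 reads as the limit, for counting error only. Its neighbour Cmpk2 had 327 to 683 reads in the same libraries. Ifit1, Ifit3 and Ifit3b, the neighbours of Ifit2, had at most 0.416, 0.734 and 0.231 RPKM in any of them. Markers of endothelium summed to 23.4 and 23.7 RPKM in Neuron-ctrl against 2.49 and 2.73 in Neuron-PLA. Sums were also lower in Neuron-PLA for astrocytes (228 to 244 RPKM in Neuron-ctrl against 126 to 150), radial glia (316 to 328 against 165 to 204, with 2 of 7 tested markers falling), erythroid cells (82.3 to 89.0 against 30.8 to 40.8) and pericytes and meninges (10.9 to 13.9 against 3.94 to 5.03). Neuronal markers summed to 3552 to 3588 against 3509 to 3659. The part of these markers was not tested.

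**Figure D4:**
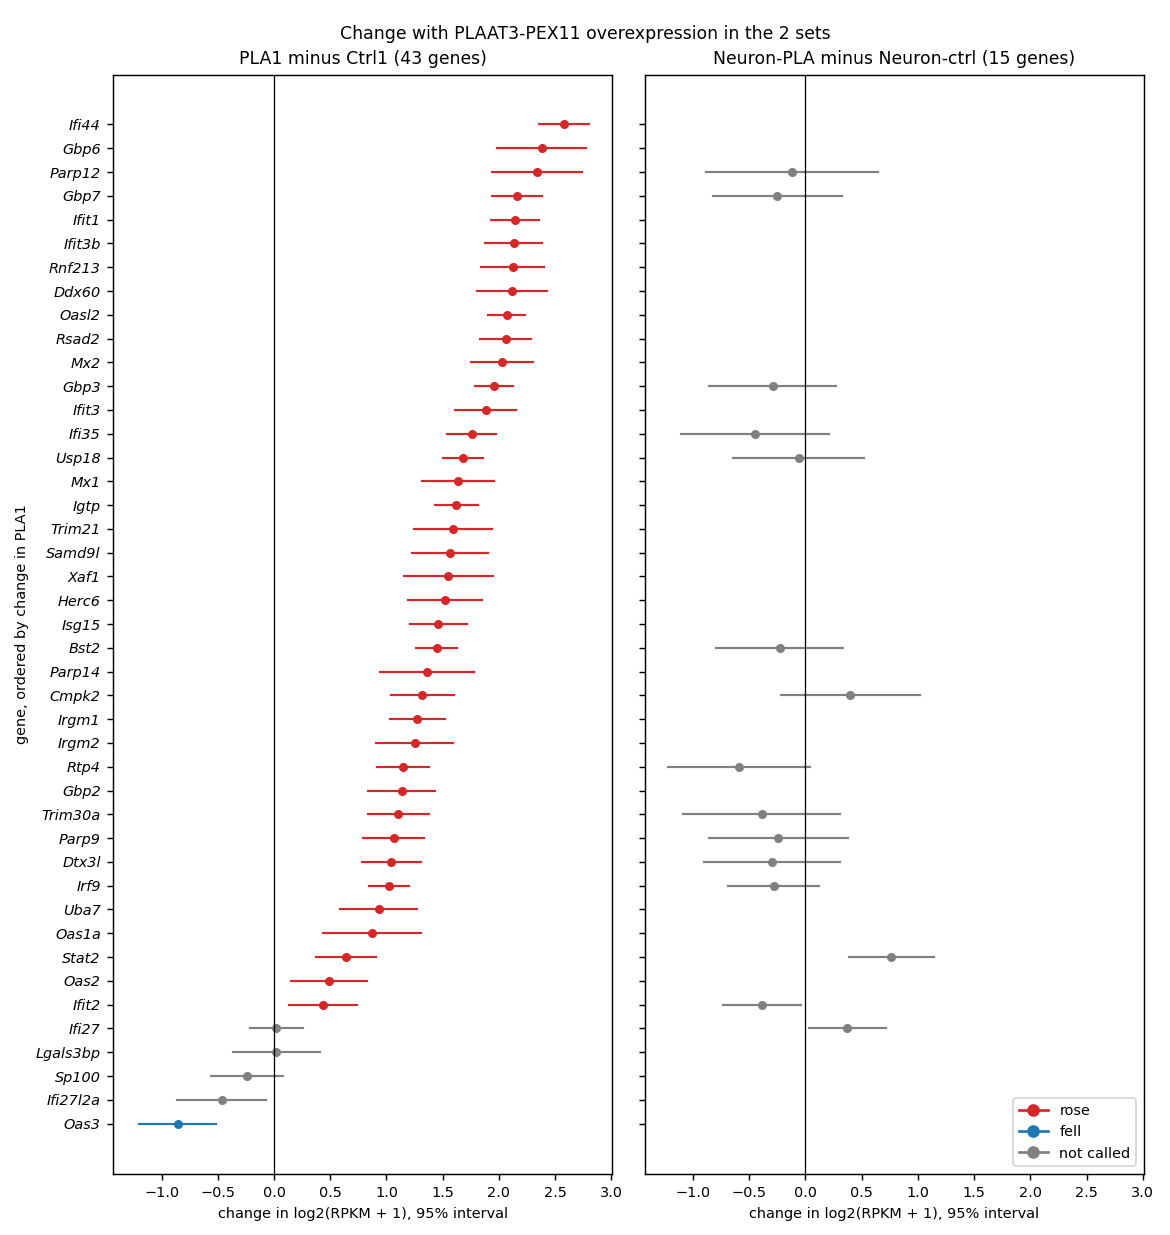
Change in log2(RPKM + 1) with its 95% interval for overexpression in the first set (left, 43 genes at 1 RPKM or more) and in the neuron set (right, 15 genes at 0.3 RPKM or more); red rose, blue fell, grey did not pass. On the left 38 genes are red and 1 is blue, while on the right none is coloured and 12 of 15 points lie below 0.

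Whether the change differed between the sets was tested as an interaction of set and treatment over the 8 libraries, a difference of differences taken within tables. Of 43 genes tested, with a mean of at least 1 RPKM over the 8 libraries, 33 had a larger change in the first set and 1, Oas3, a smaller one. The call of Oas3 was lost when any 1 of 7 of the 8 libraries was left out (adjusted p from 0.0756 to 0.167). Over the 11705 genes tested, 6.19% were larger and 5.48% smaller (725 and 642 genes, or 558 and 793 under upper-quartile scaling, with 33 of the 43 larger). The 28 tested genes that were too low to judge in the neuron set passed the filter only through the first set. Their difference thus largely repeats the change there, as for Rsad2, at 2.06 in both fits. Of these 28, 22 were called, and those calls, Oas3 included, rest on values near 0 in the neuron set. Among them the call of Gbp2 was lost when any 1 of 6 libraries was left out (0.0507 to 0.120), that of Ifit3 without the second Ctrl1 or the first PLA1 library (0.0633 and 0.0541) and that of Parp14 without the first Ctrl1 library (0.0522). Of the 15 genes at 0.3 RPKM or more in the neuron set, 12 were called, all with the larger change in the first set. The differences ran from 0.82 ± 0.19 for Ifit2 (adjusted p = 0.0226) to 2.46 ± 0.37 for Parp12 (adjusted p = 0.00336). The call of Ifit2 was lost when any 1 of 6 libraries was left out, with adjusted p from 0.0528 to 0.0922. That of Parp9 was lost without the second Ctrl1 library (0.0503) and that of Trim30a without the first (0.0573). For Stat2 the difference was -0.12 ± 0.20 (adjusted p = 0.739), for Cmpk2 0.92 ± 0.32 (adjusted p = 0.0927, and 0.0258 without the first Neuron-ctrl library) and for Ifi27 -0.35 ± 0.17 (adjusted p = 0.205). The scale log2(RPKM + 1) understates changes at a low level. With a pseudocount of 0.1, 20 of the 43 were called, and of the 15 genes Parp9 (adjusted p = 0.0512), Parp12 (0.0956) and Trim30a (0.102) no longer passed. Usp18 did not pass by limma-voom (adjusted p = 0.0544), nor Ifit2 (0.0690), Parp9 (0.0534) and Trim30a (0.0729) by limma without a filter.

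Knockdown of Pex7 in neural stem cells gave no call among the 15 of these genes that were tested. Stem cells in culture held more of them at a measurable level than the embryonic brain, Gbp3 at 4.79 and 3.57 RPKM in Scramble against 4.10 and 3.54 in Pex7sh, Rnf213 at 4.31 and 4.14 against 3.46 and 4.03, and Stat2 at 7.39 and 8.93 against 7.61 and 7.48. Of 15 genes tested by limma, 0 were called and 1, Ifi27, had an unadjusted p under 0.05. Over all 12482 genes, 0% were called and 184 had an unadjusted p under 0.05, and limma-voom called 0 as well. Ifi27 was 4.43 and 6.38 RPKM in Scramble against 3.67 and 3.25 in Pex7sh, a change of -0.51 with a 95% interval from -0.95 to -0.07. Among the other 14 the change ran from -0.35 for Lgals3bp to 0.18 for Ifit2, and the interval of Isg15, the widest, from -0.66 to 0.80.

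Over the 6 embryonic stages, slopes on embryonic day were fitted over 12921 genes, with 1 library a stage. Of the 7 genes that reached this level, 2 rose and 0 fell. Over all genes tested, 19.6% rose and 25.5% fell with age, so 2 of 7 is near the background. Cmpk2 was 0.807, 1.05, 1.05, 1.42, 1.57 and 2.96 RPKM from day 11 to day 18, a slope of 0.15 ± 0.03 per day in log2(RPKM + 1) (adjusted p = 0.00567). Stat2 was 3.18, 4.57, 4.96, 3.97, 5.05 and 6.86, a slope of 0.10 ± 0.03 (adjusted p = 0.0314). Both were highest at day 18, and without that library neither passed, with adjusted p of 0.103 for Cmpk2 and 0.273 for Stat2. Without day 11 the adjusted p of Stat2 was 0.113. Irf9 stayed between 3.32 and 4.05 RPKM, with a slope of 0.02 and a 95% interval from -0.03 to 0.07.

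With the filter at 0.3 RPKM, 14 genes were tested, 3 rose and 2 fell, where 19.3% of 15232 genes rose and 22.2% fell. These counts too are near the background, and single stages were not left out with this filter. Ifi27 was added to the rises, from 0.130 RPKM at day 11 over 0.246, 0.461, 0.312 and 0.943 to 2.26 at day 18 (0.21 ± 0.03 per day, adjusted p = 0.00308). The neighbours Parp9 and Dtx3l fell. Parp9 was 0.701, 0.959, 0.848, 0.759, 0.338 and 0.279 RPKM (-0.08 ± 0.03, adjusted p = 0.0415), and Dtx3l 0.694, 0.896, 0.544, 0.839, 0.438 and 0.103 (-0.09 ± 0.03, adjusted p = 0.0434). Rsad2 had at most 10 reads in any stage, although its neighbour Cmpk2 had 176 to 671. The day 11 library also held the highest sum of erythroid markers, 6749 RPKM against 253 at day 18, and summed microglia markers were lowest at day 12 (19.7 RPKM) and highest at day 18 (48.3 RPKM). From day 11 to day 18 the sums went from 1017 to 3002 RPKM for neurons (6 of 10 tested markers rose) and from 30.3 to 197 for astrocytes, and for radial glia from 1031 to 652 (6 of 9 fell and 1 rose). Choroid plexus markers ranged from 1.63 RPKM at day 13 to 109 at day 18. Their part in the slopes was not tested.

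**Figure D5:**
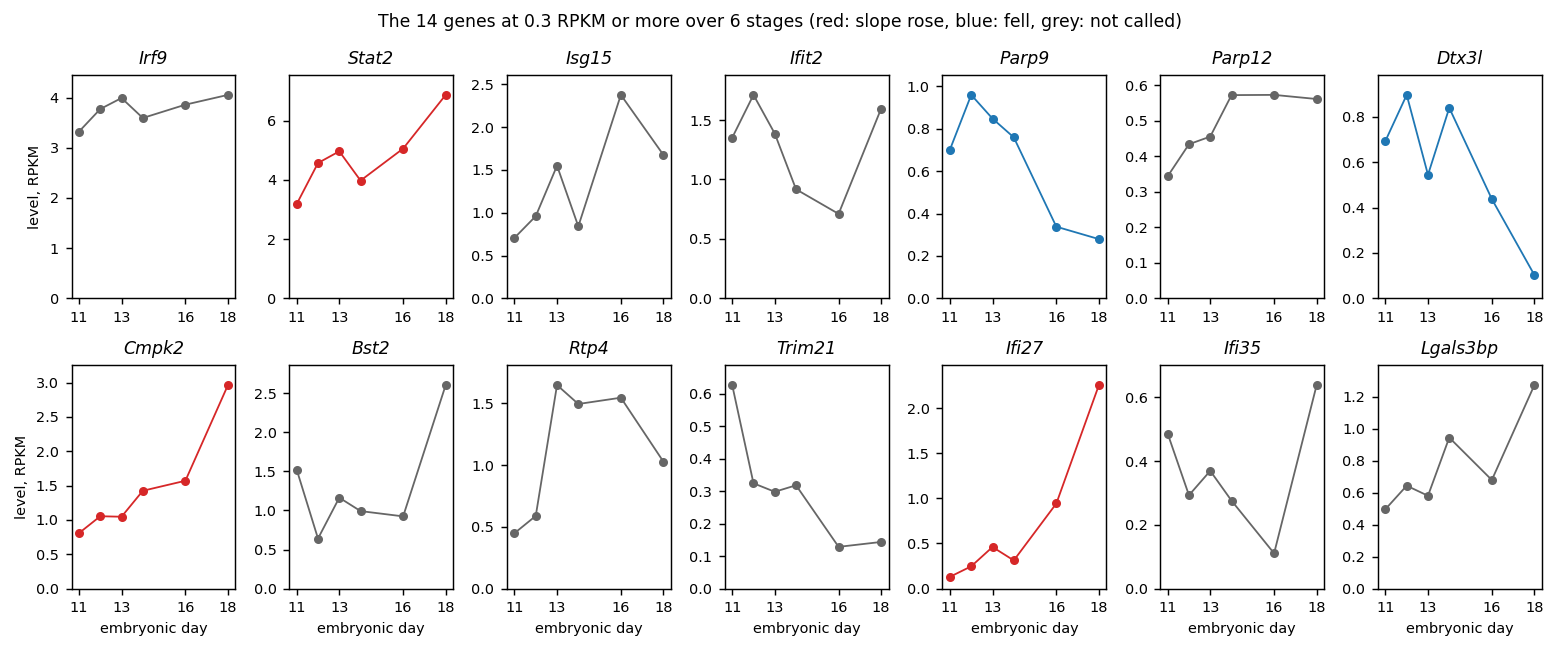
Level in RPKM of the 14 genes that averaged 0.3 RPKM or more over the stages, by embryonic day, with 1 library a stage and each panel on its own axis from 0; red panels rose and blue panels fell in the fit with the filter at 0.3 RPKM. Cmpk2, Stat2 and Ifi27 are highest at day 18, and Parp9 and Dtx3l are lowest there.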

How the data were processed

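RNA was extracted from 18 mouse libraries, and reads were aligned with STAR 2.7.9a and counted with HTSeq 0.6.0 on mm10, as the submitters' processing notes state (per the labels). What the authors deposited are 4 tables of RPKM values, which no header names. RPKM times GENCODE M21 exon length gave whole reads (within 0.01) for 97.6% to 98.0% of nonzero values, and 32009 of 32941 genes had a length. The 44 genes, lists and tests were chosen with earlier results of these data known.

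Treated and control libraries were compared inside 1 table by limma 3.58.1 in R 4.3.3 on log2(RPKM + 1), with a mean-variance trend, on genes averaging 1 RPKM or more, with Benjamini-Hochberg adjustment over all genes tested (threshold 0.05). Changes are differences on that scale, which understates changes of low genes. The stages were fitted by a slope on embryonic day, and the sets compared by an interaction. Values per library are given for the 3 genes of largest change per role group, for genes tested elsewhere and, from each pathway list, up to 4 genes of smallest adjusted p; other named genes, such as Ifitm2, Ifi203, Csf1r, C1qb and neighbours, were singled out after their values were seen. Alternatives were pseudocount 0.1, a filter of 0.3 RPKM or none, median-ratio and upper-quartile scaling, no trend, limma-voom, a replicate block and leaving out libraries; a minimum of 400 bases of exon was added after simulated data gave false calls among shorter genes. Poisson limits cover counting error only. Some other genes are not reported here.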

Additional observations from a re-analysis of the deposited data

Results flagged for a closer look

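The effect of overexpression differed between the first set and the neuron set for 12 of the 15 genes that could be judged in both. The test was the interaction of set and treatment (limma, adjusted p under 0.05). Over all 11705 genes tested, 6.19% had a larger and 5.48% a smaller change in the first set. The change in log2(RPKM + 1) in the first set exceeded that in the neuron set by 2.46 for Parp12, 2.41 for Gbp7, 2.25 for Gbp3, 2.21 for Ifi35, 1.74 for Usp18, 1.74 for Rtp4, 1.68 for Bst2, 1.5 for Trim30a, 1.34 for Dtx3l, 1.31 for Parp9, 1.3 for Irf9 and 0.82 for Ifit2. Usp18, Gbp3, Gbp7, Parp9, Parp12, Dtx3l, Trim30a and Ifi35 lay between 0.3 and 1 RPKM in the neuron set, where this scale understates changes. With a pseudocount of 0.1, Parp9, Parp12 and Trim30a did not pass. Usp18 did not pass by limma-voom, nor Ifit2, Parp9 and Trim30a without a filter. Each of the 12 rose in the first set and had a change below 0 in the neuron set that did not pass. Their levels in the controls also differ between the tables, and the part of level, tissue or construct in the difference was not tested. Groups of 1 or 2 libraries are too small for a test of single outlying libraries.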

How the results depend on the processing

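In the first set, the number of genes that rose stayed between 34 and 38 under every alternative run and between 35 and 36 when single libraries were left out. In the neuron set it was 0 under every alternative except limma-voom, which gave 1, and after Pex7 knockdown it was 0 under each. For the stages, the 2 calls became 5 with the filter at 0.3 RPKM and 9 without a filter, where more genes are tested, and ranged from 0 (without day 18) to 2 when single stages were left out. Of the 34 interaction calls, 22 were of genes too low to judge in the neuron set. These 34 calls fell to 20 with a pseudocount of 0.1 and 18 with limma-voom, and the cause was not tested. They ranged from 29 to 34 when single libraries were left out, and Oas3 then kept its call only without the second Neuron-PLA library.

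Direction was followed for 29 of the genes in the first set and, in the interaction, for the 15 judged in both sets. Among the genes followed, directions changed only among values that did not pass. The interaction of the genes too low to judge in the neuron set was not followed in this way. In the first set, Ifi27 was -0.0348 under median-ratio and -0.0809 under upper-quartile scaling, and -0.0520 to 0.0952 with single libraries left out. Lgals3bp was -0.0206, -0.0535 and -0.0479 to 0.0871. Left-out libraries gave -0.574 to 0.114 for Bst2 in the neuron set, -0.120 to 0.00585 for the slope of Ifit2, -0.0389 to 0.146 for the slope of Bst2 and -0.282 to 0.039 for the interaction of Stat2.

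With a replicate block, 38 genes rose and 2 fell in the first set, 0 changed in the neuron set and after knockdown, and 33 were called in the interaction. Same-numbered libraries had deviations correlated by 0.10, 0.05 and 0.01 in the 3 comparisons. Over all genes of the first set, 2428 rose and 1869 fell with the block, against 1900 and 1538 without it. In the neuron set 23 rose and 31 fell with it, against 42 and 56. Whether same-numbered libraries share a batch or a source was not tested. The block added a fall of Ifi27l2a (adjusted p = 0.0438). In the neuron set 12 to 16 of the 44 genes had no read in a library, at totals of 21007262 to 28104925 reads, and in the first set 0, at 16147909 to 21041184 reads.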
